A study of Mus musculus with 8 samples.

Results

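The 32 genes described here belong to the integrated stress response and to the serine and folate pathways it is linked to. They were chosen by symbol from knowledge of the pathways, with earlier results of these data known, and all 32 were found among the 23420 gene symbols listed for each library. They comprise 10 factors and regulators (Atf4, Atf5, Ddit3, Cebpb, Cebpg, Nupr1, Trib3, Chac1, Ddit4 and Vldlr), 4 genes of eIF2 phosphorylation and endoplasmic reticulum (ER) stress (Eif2ak3, Eif2ak4, Xbp1 and Herpud1), and 5 enzymes of serine, asparagine and cysteine synthesis (Phgdh, Psat1, Psph, Asns and Cth). The others are 6 enzymes of folate metabolism (Shmt1, Shmt2, Mthfd1, Mthfd1l, Mthfd2 and Aldh1l2) and 7 amino acid transporter subunits (Slc7a11, Slc3a2, Slc7a5, Slc7a1, Slc1a4, Slc1a5 and Slc38a2). The study sequenced RNA of mouse embryonic fibroblasts (MEFs), primary cells cultured from embryos, that expressed the adenoviral protein E1A and the activated Ras protein HRasV12. The Neat1 null group comprised 4 libraries from Neat1-/- cells and the wild-type group 4 libraries from wild-type cells, all on a C57BL6/N background and all with both oncogenes. Neat1 is a long noncoding RNA that builds nuclear paraspeckles. Nothing in the labels ties a library to an embryo or a culture dish, and each p-value is therefore set against library-to-library spread, which may be technical.

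In the integrated stress response, kinases that sense ER stress (Perk, encoded by Eif2ak3) or lack of amino acids (Gcn2, encoded by Eif2ak4) phosphorylate the translation factor eIF2. Protein synthesis then falls in general while translation of the transcription factor Atf4 increases. Atf4, paired with C/EBP proteins, binds C/EBP-ATF response elements in genes for amino acid synthesis and uptake. Phgdh, Psat1 and Psph turn a glycolytic intermediate into serine, and the Shmt enzymes pass a carbon unit of serine to folate, in the cytosol (Shmt1, Mthfd1) or in mitochondria (Shmt2, Mthfd2, Mthfd1l, Aldh1l2). Counts of RNA do not measure phosphorylation or translation.

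The promoters of Trib3, Chac1, Asns and Vldlr are printed because each holds the core of the C/EBP-ATF response element. The first 3 are Atf4 target genes, and Vldlr passed the test below. Among the genes that passed, Aldh1l2 had no window to scan, and Phgdh, Shmt1 and Eif2ak3 held no core in theirs. The windows run 5′ to 3′ along the gene's strand from 250 bases before to 50 bases after the RefSeq start, on GRCm38.p6, and capitals mark the core, spelled TGATGNAA on either strand.
Trib3, chr2:152344011-152344310, minus strand: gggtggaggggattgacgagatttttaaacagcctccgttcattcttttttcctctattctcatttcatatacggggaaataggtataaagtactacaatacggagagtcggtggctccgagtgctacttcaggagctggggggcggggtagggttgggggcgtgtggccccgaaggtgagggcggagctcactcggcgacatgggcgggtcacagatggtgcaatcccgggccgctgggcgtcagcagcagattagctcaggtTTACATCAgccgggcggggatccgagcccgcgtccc
Chac1, chr2:119350992-119351291, plus strand: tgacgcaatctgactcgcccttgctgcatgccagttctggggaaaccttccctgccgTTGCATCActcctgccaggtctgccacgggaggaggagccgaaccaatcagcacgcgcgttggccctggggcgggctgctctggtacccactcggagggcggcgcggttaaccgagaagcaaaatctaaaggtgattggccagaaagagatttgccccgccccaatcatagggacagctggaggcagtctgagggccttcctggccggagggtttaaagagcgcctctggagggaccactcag
Vldlr, chr19:27216770-27217069, plus strand: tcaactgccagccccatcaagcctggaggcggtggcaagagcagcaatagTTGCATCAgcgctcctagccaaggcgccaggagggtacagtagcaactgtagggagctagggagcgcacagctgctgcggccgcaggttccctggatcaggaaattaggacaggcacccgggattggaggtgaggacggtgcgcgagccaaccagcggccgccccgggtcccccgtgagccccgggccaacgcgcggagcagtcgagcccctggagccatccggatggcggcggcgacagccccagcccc
Asns, chr6:7693160-7693459, minus strand: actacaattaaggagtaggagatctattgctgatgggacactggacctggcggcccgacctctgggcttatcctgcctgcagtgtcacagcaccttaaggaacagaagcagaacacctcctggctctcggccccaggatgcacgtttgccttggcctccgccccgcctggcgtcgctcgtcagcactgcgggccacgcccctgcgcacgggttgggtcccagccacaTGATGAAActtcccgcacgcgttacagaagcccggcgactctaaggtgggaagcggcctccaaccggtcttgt
The core reads along the gene's strand in Asns, at position -23 from the start, and on the opposite strand in the other promoters. It lies at position -193 in Chac1, at -200 in Vldlr and at 15, within the transcript, in Trib3. A window at another start of Vldlr held no core. Windows were found for 28 of the 32 genes, and the core occurred in 8 of these 28 (28.6%), which also include Nupr1, Herpud1, Slc7a11 and Slc1a4. Over all genes with a window it occurred in 1219 of 27025 (4.51%). The ER stress element, spelled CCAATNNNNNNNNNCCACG, occurred in 0 of the 28 genes, against 37 of 27025 (0.137%), and shares no sequence with the core. A match is a description of letters and not a measured binding site.

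The Neat1 null libraries held 19651035 to 38950207 counts in genes, and the wild-type libraries 31651625 to 37069334. Values are given in CPM (each count divided by the TMM-scaled library size and multiplied by 1000000), which evens out the bulk of genes between libraries. Neat1 RNA itself measured 6.92, 11.3, 7.90 and 6.12 CPM in the Neat1 null libraries, against 138, 588, 753 and 1320 CPM in the wild-type libraries, a log2 fold change of -6.44 ± 0.66 (SE; edgeR adjusted p = 0.000761). Libraries differed in other ways that move with the groups. Ribosomal protein genes took 8.44% to 25.5% of counts in the Neat1 null libraries, with the highest share in replicate 1, against 5.997% to 7.06% in the wild-type libraries, and the ribosomal RNA precursor Rn45s took 5.23% in Neat1 null replicate 1. The slope of expression on log2 exon length lay between -0.482 and 0.00597 in the Neat1 null libraries, against 0.139 to 0.249 in the wild-type libraries. By Xist and Y-linked genes, 3 of the 4 Neat1 null libraries were male, all but replicate 3, while the 4 wild-type libraries were female, so sex and genotype largely cannot be told apart. In a fit with sex as a term, the genotype effect is by construction that of the 1 female Neat1 null library, replicate 3, against the wild-type libraries. Of 12 fibroblast markers, Vim and Fn1 were abundant, and Dcn, Lum and Postn were under 1 CPM in all libraries. The summed level ranged from 2591 to 4035 CPM in the Neat1 null libraries, against 1828 to 3402 CPM in the wild-type libraries, and was mostly Vim and Fn1. Col1a1, Col3a1 and Thy1 averaged 2.50, 2.85 and 4.53 CPM in the Neat1 null libraries, against 5.47, 3.22 and 5.27 CPM in the wild-type libraries. Within this list Pdgfra fell, at 7.50 ± 2.91 CPM in the Neat1 null libraries and 90.0 ± 57.0 CPM in the wild-type libraries (SD, n = 4 each; -3.59 ± 0.51, edgeR adjusted p = 0.00806), and S100a4 rose (2.08 ± 0.68, edgeR adjusted p = 0.0473), with 29.0 CPM in Neat1 null replicate 1 and 2.72 to 4.28 CPM in the other Neat1 null libraries, against 2.07 to 2.53 CPM in the wild-type libraries. Summed epithelial markers, with Krt5 and Krt14 under 1 CPM, ranged from 249 to 3181 CPM in the Neat1 null libraries, highest in replicate 1, against 194 to 633 CPM in the wild-type libraries. Krt18 alone measured 3144 CPM in Neat1 null replicate 1, where Krt8 was also highest at 2.07 CPM. Epcam, at 34.0 CPM, and Cdh1, at 1.35 CPM, were lowest there among the Neat1 null libraries. Cd68, a macrophage marker, fell, at 12.2 ± 6.41 CPM in the Neat1 null libraries and 67.9 ± 41.9 CPM in the wild-type libraries (SD, n = 4 each; -2.47 ± 0.64, edgeR adjusted p = 0.0239). The part of these differences in the results was not tested. In bulk RNA, fewer cells of a type and less RNA per cell cannot be told apart.

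All 32 genes passed the filter on low counts, and 31 had at least 10 counts in every library. At an adjusted p under 0.05 (edgeR's quasi-likelihood F test, Benjamini-Hochberg over 13316 genes), 5 of the 32 (15.6%) were called, against 17.7% of all genes tested. Phgdh and Shmt1 rose in the Neat1 null libraries (2 of 32, against 9.97% of all genes), and Vldlr, Eif2ak3 and Aldh1l2 fell (3 of 32, against 7.72%). The other 27 genes did not pass the test. The share called was close to that of all genes, so the number of calls does not set these genes apart. At an unadjusted p under 0.05, 15 genes passed, 11 with positive and 4 with negative fold changes, against 36.0% of all genes. DESeq2 called 11 of the 32, 7 higher and 4 lower, against 25.8% of all genes. With sex as a term edgeR called 14 of the 32, 11 higher and 3 lower, against 25.4% of all genes, and the median of all genes moved to -0.26. That fit kept Phgdh and Aldh1l2 and lost Shmt1, Vldlr and Eif2ak3.

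The fold change was positive for 23 of the 32 genes (71.9%), against 47.8% of all genes, and its median was 0.77 on the log2 scale, against -0.06 over all genes tested. Groups did not overlap for 6 of the 32 genes (18.8%), namely Atf4, Phgdh, Shmt2, Mthfd2 and Slc3a2 with all Neat1 null libraries above all wild-type libraries, and Aldh1l2 with all below. Over all genes tested the groups did not overlap for 22.6%, with 11.7% higher and 11.0% lower in the Neat1 null libraries. By role, the median log2 fold change was 0.53 for the factors, -0.14 for the eIF2 kinases and ER stress genes, 1.02 for the serine, asparagine and cysteine enzymes, 0.94 for the folate enzymes and 0.44 for the transporters. The members of a role did not share 1 direction, as the plot of fold changes by role shows. After a correction of each library for exon length and GC content, the median of the 32 genes was 0.40, against 0.10 over all genes, and 2 genes were called, against 12.6% of all genes. These were Phgdh, higher (7.71% of all genes), and Aldh1l2, lower (4.86% of all genes). By role the corrected medians were -0.13 for the factors, whose sign turned, -0.09 for the eIF2 kinases and ER stress genes, 0.94 for the serine, asparagine and cysteine enzymes, 0.95 for the folate enzymes and 0.87 for the transporters.

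**Figure D1:**
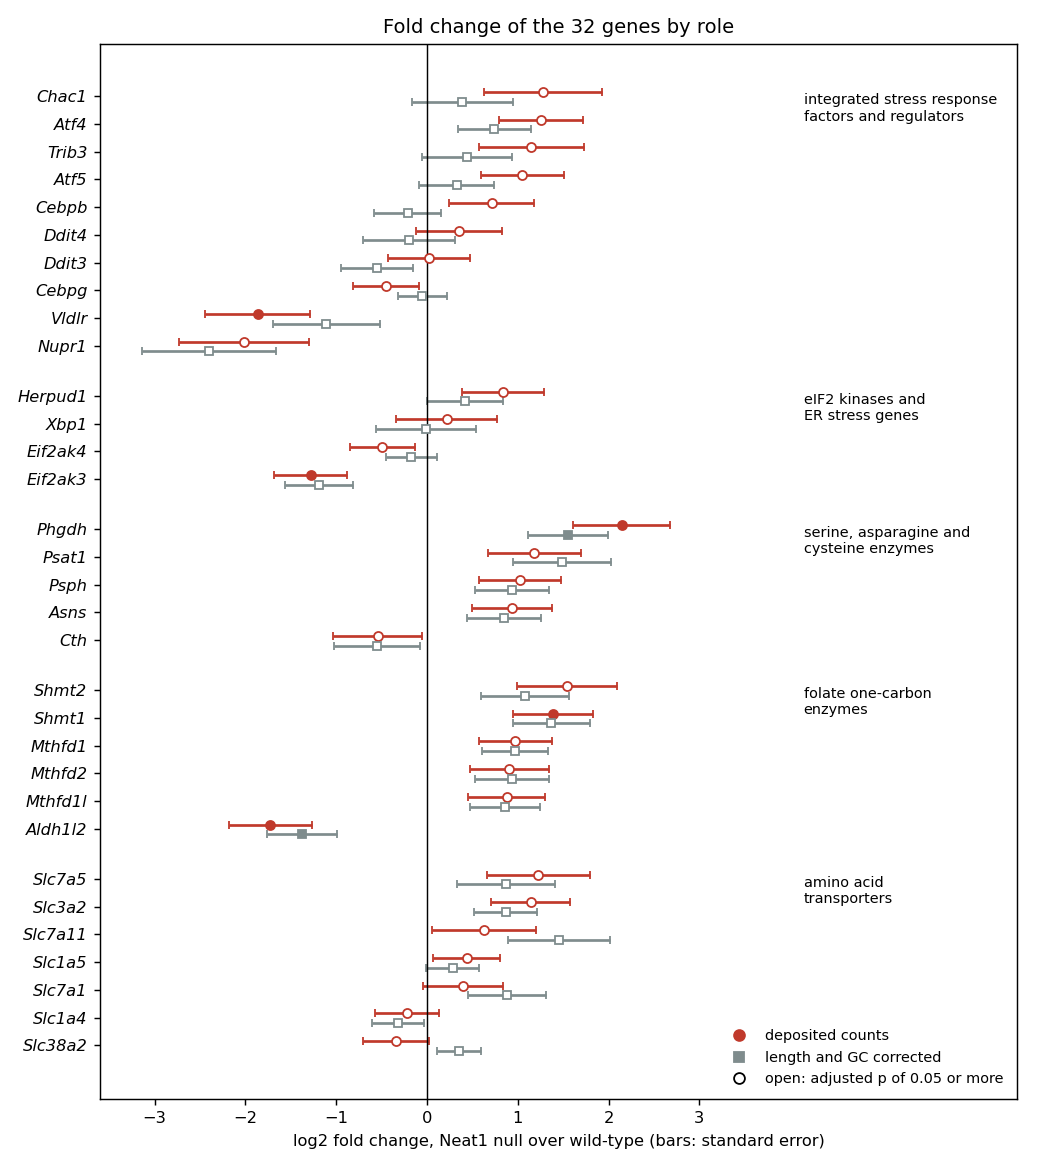
Log2 fold change (Neat1 null over wild-type, x axis) of each of the 32 genes, grouped by role, with bars for the standard error. Red circles are from the deposited counts and grey squares from the length and GC corrected fit, and filled symbols mark an adjusted p under 0.05, as for Phgdh at 2.14 and Aldh1l2 at -1.73.

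The first enzyme of serine synthesis, Phgdh, was among the most abundant of the 32 genes per length and rose in the Neat1 null libraries. Phgdh (chr3:98313170-98339990, minus strand, mm10) measured 1098, 619, 2333 and 723 CPM in the Neat1 null libraries, against 429, 350, 134 and 167 CPM in the wild-type libraries. All Neat1 null libraries lay above all wild-type libraries, and Neat1 null replicate 3 was far above the others. The means were 1193 ± 787 CPM in the Neat1 null libraries and 270 ± 142 CPM in the wild-type libraries (SD, n = 4 each), a ratio of 4.42 and a log2 fold change of 2.14 ± 0.54 (SE; edgeR adjusted p = 0.0210). The corrected fit gave a log2 fold change of 1.55 ± 0.44 (edgeR adjusted p = 0.0450). The call was lost without Neat1 null replicate 3 (1.60, adjusted p = 0.0683), wild-type replicate 3 (1.92, 0.0787) or wild-type replicate 4 (1.97, 0.0810) in edgeR, and without both Neat1 null replicates 1 and 3 (1.31, 0.154).

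The enzymes after Phgdh had positive fold changes that did not pass the test of all 8 libraries in edgeR. DESeq2 called Psat1 (adjusted p = 0.0445). In the fit with sex as a term, which rests on Neat1 null replicate 3 alone, the log2 fold changes were 2.11 for Psat1, 1.84 for Psph and 1.66 for Asns. Psat1, the transaminase of the second step, measured 391, 844, 1827 and 784 CPM in the Neat1 null libraries, against 551, 636, 246 and 263 CPM in the wild-type libraries (1.18 ± 0.51, edgeR adjusted p = 0.111). Here Neat1 null replicate 1 lay below wild-type replicates 1 and 2, so the groups overlapped. Psph, the phosphatase that releases serine, ranged from 36.6 to 166 CPM in the Neat1 null libraries and from 27.8 to 67.1 CPM in the wild-type libraries, with a log2 fold change of 1.02 ± 0.45 (edgeR adjusted p = 0.117).

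Asns, which makes asparagine, ranged from 280 to 710 CPM in the Neat1 null libraries and from 135 to 374 CPM in the wild-type libraries, with a log2 fold change of 0.93 ± 0.44 (edgeR adjusted p = 0.138). Cth, which makes cysteine from cystathionine, was the enzyme of this role with a negative value, -0.54 ± 0.49 (edgeR adjusted p = 0.442), with 9.17 to 48.8 CPM in the Neat1 null libraries and 24.9 to 63.3 CPM in the wild-type libraries. Of these 5 enzymes, 1 rose and 4 did not pass, and 4 had an unadjusted p under 0.05.

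Of the 6 folate enzymes, Shmt1 rose, Aldh1l2 fell and 4 did not pass. Shmt1, the cytosolic serine hydroxymethyltransferase (chr11:60788104-60811718, minus strand), measured 316, 145, 241 and 174 CPM in the Neat1 null libraries, against 146, 96.5, 38.2 and 54.9 CPM in the wild-type libraries. Neat1 null replicate 2 and wild-type replicate 1 met at nearly the same level, and the other libraries kept apart by group. The means were 219 ± 76.4 CPM in the Neat1 null libraries and 83.8 ± 48.0 CPM in the wild-type libraries (SD, n = 4 each), a log2 fold change of 1.39 ± 0.44 (edgeR adjusted p = 0.0430). After length and GC correction it was 1.37 ± 0.43 (edgeR adjusted p = 0.0535). The call was lost in edgeR without Neat1 null replicate 1 (1.16, adjusted p = 0.0803) or 3 (1.34, 0.0929), without wild-type replicate 2 (1.46, 0.0677), 3 (1.14, 0.140) or 4 (1.23, 0.145), without Neat1 null replicates 1 and 3 (0.93, 0.234), and with sex as a term (1.52, 0.0926). Exons of Shmt1 overlap those of Smcr8 on the other strand.

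Aldh1l2, the mitochondrial enzyme that oxidises formyl-folate to carbon dioxide (chr10:83487450-83534140, minus strand), went the other way. It measured 5.48, 15.0, 4.23 and 10.5 CPM in the Neat1 null libraries, against 22.2, 40.7, 37.7 and 16.6 CPM in the wild-type libraries. The groups did not overlap, though Neat1 null replicate 2 came close to wild-type replicate 4. The means were 8.82 ± 4.96 CPM in the Neat1 null libraries and 29.3 ± 11.7 CPM in the wild-type libraries (SD, n = 4 each), a log2 fold change of -1.73 ± 0.46 (edgeR adjusted p = 0.0239). The length and GC corrected value was -1.38 ± 0.38 (edgeR adjusted p = 0.0434). In edgeR the call was lost without Neat1 null replicate 1 (-1.56, adjusted p = 0.0502) or 3 (-1.48, 0.0723), without wild-type replicate 2 (-1.52, 0.0515), 3 (-1.58, 0.0830) or 4 (-1.92, 0.0684), and without Neat1 null replicates 1 and 3 (-1.20, 0.162). Exons of Aldh1l2 share 1056 bases with D10Wsu102e.

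Shmt2, the mitochondrial counterpart of Shmt1, did not overlap between groups but missed the threshold. It measured 402, 399, 1457 and 646 CPM in the Neat1 null libraries, against 375, 388, 108 and 123 CPM in the wild-type libraries. Neat1 null replicates 1 and 2 lay just above wild-type replicates 1 and 2, so the gap between groups came from the other 4 libraries. The means were 726 ± 501 CPM in the Neat1 null libraries and 249 ± 154 CPM in the wild-type libraries (SD, n = 4 each), with a log2 fold change of 1.55 ± 0.55 (edgeR adjusted p = 0.0629, DESeq2 adjusted p = 0.0146). It was called by edgeR without Neat1 null replicate 2 (1.76, adjusted p = 0.0456) or wild-type replicate 1 (1.82, 0.0487). The log2 fold change was 2.55 with sex as a term, where Neat1 null replicate 3 alone carries the genotype effect.

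Mthfd2, the mitochondrial methylene-folate dehydrogenase, varied little across the Neat1 null libraries, with replicate 3 above the others. It measured 202, 205, 257 and 208 CPM there, against 191, 163, 56.9 and 54.6 CPM in the wild-type libraries. Wild-type replicate 1 reached nearly the lowest Neat1 null library, while wild-type replicates 3 and 4 lay far below. The means were 218 ± 26.4 CPM in the Neat1 null libraries and 116 ± 70.9 CPM in the wild-type libraries (SD, n = 4 each), with a log2 fold change of 0.91 ± 0.43 (edgeR adjusted p = 0.145).

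Mthfd1, the cytosolic enzyme with 3 folate activities, ranged from 247 to 315 CPM in the Neat1 null libraries and from 84.2 to 258 CPM in the wild-type libraries (0.97 ± 0.40, edgeR adjusted p = 0.0984). Mthfd1l, the mitochondrial enzyme that releases formate, ranged from 55.2 to 128 CPM in the Neat1 null libraries and from 29.1 to 91.9 CPM in the wild-type libraries (0.88 ± 0.42, edgeR adjusted p = 0.146). Both were called when wild-type replicate 1 was left out, with edgeR adjusted p of 0.0225 for Mthfd1 and 0.0264 for Mthfd1l, and DESeq2 called Mthfd1 (adjusted p = 0.0454). So 5 of the 6 folate enzymes had fold changes from 0.88 to 1.55 on the log2 scale, of which 1 passed the test, and Aldh1l2 stood apart from them in direction.

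**Figure D2:**
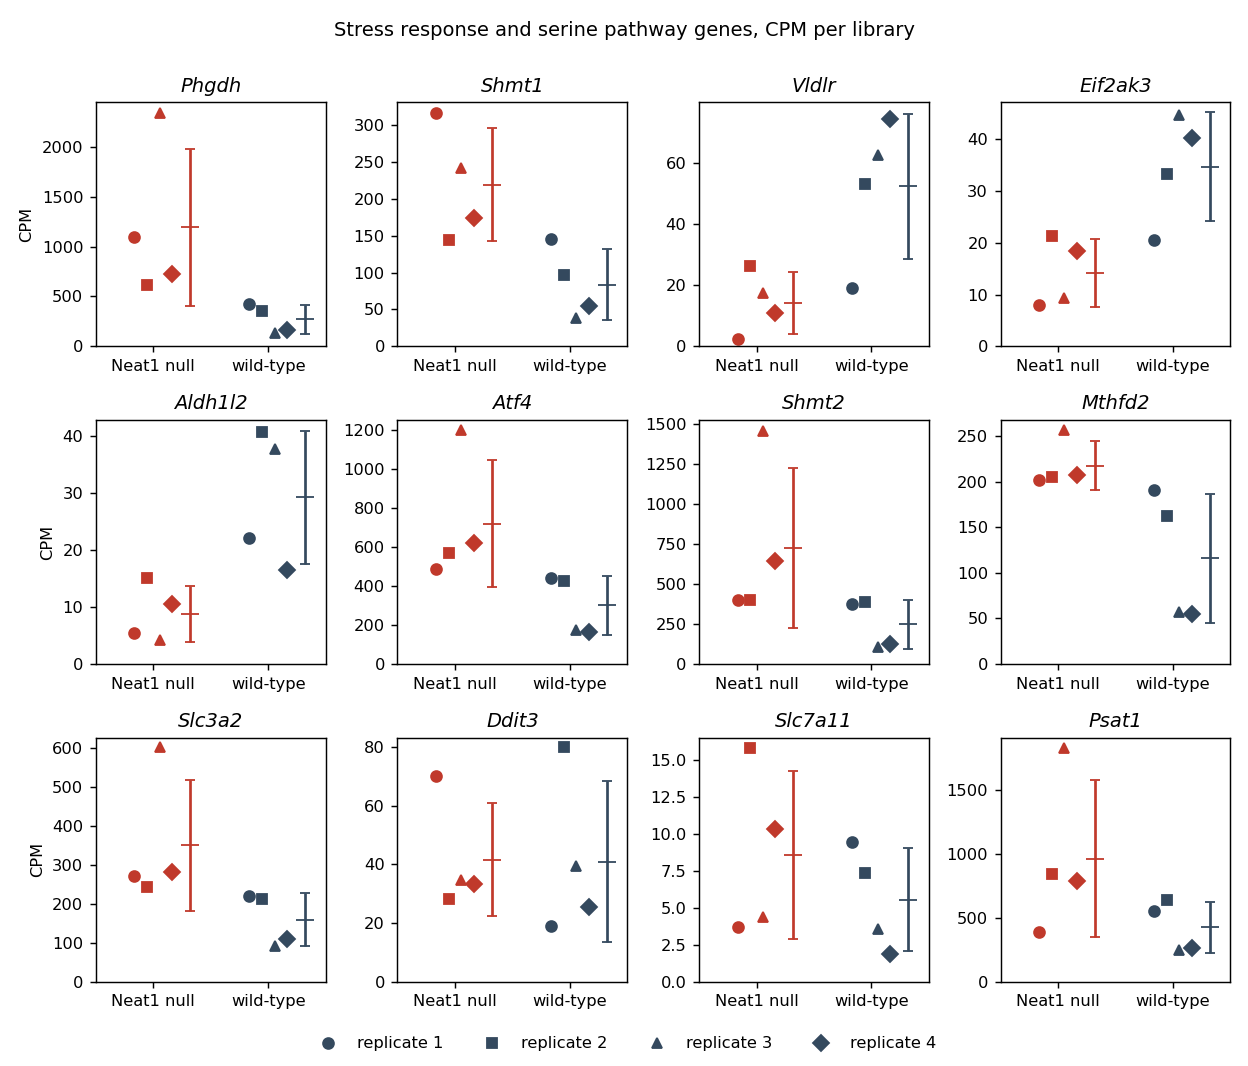
CPM (y axis, starting at 0) of 12 genes in the 4 Neat1 null libraries (red, left) and the 4 wild-type libraries (blue, right), with marker shape for the replicate number and the mean ± SD beside each group. Replicate 3 (triangle) leads the Neat1 null group for Phgdh at 2333 CPM and Atf4 at 1199 CPM, and wild-type replicates 3 and 4 are the lowest for both.

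Of the 10 factors and regulators, 1, Vldlr, fell, and none of the transcription factors passed the edgeR test with genotype as the only term. With sex as a term, Neat1 null replicate 3 alone carries the genotype effect. The log2 fold changes in that fit were 1.99 for Atf4, 1.92 for Atf5, 2.36 for Trib3, 2.66 for Chac1 and -1.53 for Cebpg. Atf4, the central factor of the response, measured 489, 570, 1199 and 622 CPM in the Neat1 null libraries, against 440, 424, 174 and 167 CPM in the wild-type libraries. The groups did not overlap, with a narrow gap between Neat1 null replicate 1 and wild-type replicate 1. The means were 720 ± 324 CPM in the Neat1 null libraries and 301 ± 151 CPM in the wild-type libraries (SD, n = 4 each), with a log2 fold change of 1.26 ± 0.46 (edgeR adjusted p = 0.0702, DESeq2 adjusted p = 0.0193). After length and GC correction it was 0.74 ± 0.40 (edgeR adjusted p = 0.207).

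Ddit3, which encodes the stress factor Chop and is a target of Atf4, did not follow Atf4. It measured 70.0, 28.0, 34.7 and 33.3 CPM in the Neat1 null libraries, against 18.8, 79.8, 39.3 and 25.6 CPM in the wild-type libraries. Each group had 1 high library, Neat1 null replicate 1 and wild-type replicate 2, and the groups overlapped fully. The means were 41.5 ± 19.2 CPM in the Neat1 null libraries and 40.9 ± 27.3 CPM in the wild-type libraries (SD, n = 4 each), with a log2 fold change of 0.02 ± 0.45 (edgeR adjusted p = 0.976). Exons of Ddit3 overlap those of Mars, and the strand setting of the counting is not given in the sources used here.

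The Atf4-related factor Atf5 had a log2 fold change of 1.05 ± 0.46 (edgeR adjusted p = 0.115), with 84.8 to 240 CPM in the Neat1 null libraries and 30.5 to 103 CPM in the wild-type libraries. Cebpb, a partner of Atf4, had 0.71 ± 0.47 (edgeR adjusted p = 0.286) and 0.03 without Neat1 null replicate 1, where it was at 32.6 CPM, against 8.57 to 11.4 CPM in the other Neat1 null libraries. Cebpg, another C/EBP partner, ranged from 21.2 to 60.8 CPM in the Neat1 null libraries and was even over the wild-type libraries at 57.3 to 64.1 CPM (-0.45 ± 0.36, edgeR adjusted p = 0.386). None of these 3 genes separated the groups.

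Trib3, a pseudokinase that restrains Atf4, and Chac1, which degrades glutathione, were led by 1 library. Trib3 measured 29.0, 47.9, 169 and 44.8 CPM in the Neat1 null libraries, against 26.8, 69.6, 20.3 and 14.6 CPM in the wild-type libraries (1.15 ± 0.58, edgeR adjusted p = 0.166). Chac1 measured 8.71, 30.2, 151 and 42.2 CPM in the Neat1 null libraries, against 27.5, 34.6, 19.9 and 13.6 CPM in the wild-type libraries (1.28 ± 0.65, edgeR adjusted p = 0.173). Without Neat1 null replicate 3 the log2 fold changes were 0.32 for Trib3 and 0.19 for Chac1, so most of both values came from that library, and without wild-type replicate 2 Trib3 was called (1.83, edgeR adjusted p = 0.0457).

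Ddit4, an inhibitor of mTORC1, ranged from 19.7 to 165 CPM in the Neat1 null libraries and from 65.2 to 97.4 CPM in the wild-type libraries (0.35 ± 0.48, edgeR adjusted p = 0.618). Nupr1, a small stress-induced chromatin protein, was among the lowest of the 32 per length, at 0.251 to 2.60 CPM in the Neat1 null libraries and 1.03 to 6.21 CPM in the wild-type libraries. Its log2 fold change of -2.01 ± 0.72 missed the threshold (edgeR adjusted p = 0.0626) and rested on as few as 8 counts in a library. It was called by DESeq2 (adjusted p = 0.0193), by edgeR with upper-quartile scaling (adjusted p = 0.0438) or with no filter on low counts (adjusted p = 0.0471), and by edgeR without Neat1 null replicate 1 (-2.80, adjusted p = 0.0356) or wild-type replicate 1 (-2.33, 0.0257).

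Vldlr, the very low density lipoprotein receptor and a gene that Perk and Atf4 are known to induce, fell (chr19:27216484-27254231, plus strand). It measured 2.43, 26.4, 17.4 and 11.0 CPM in the Neat1 null libraries, against 19.2, 53.1, 62.5 and 74.3 CPM in the wild-type libraries. Neat1 null replicate 2 lay above wild-type replicate 1, so the groups overlapped by 1 library each. The means were 14.3 ± 10.1 CPM in the Neat1 null libraries and 52.3 ± 23.7 CPM in the wild-type libraries (SD, n = 4 each), a log2 fold change of -1.86 ± 0.58 (edgeR adjusted p = 0.0394). After length and GC correction the value was -1.11 ± 0.59 (edgeR adjusted p = 0.204). In edgeR the call was lost without Neat1 null replicate 1 (-1.53, adjusted p = 0.0502), 3 (-1.95, 0.0971) or 4 (-1.76, 0.0779), without wild-type replicate 2 (-1.85, 0.0641), 3 (-1.77, 0.104) or 4 (-1.65, 0.121), without Neat1 null replicates 1 and 3 (-1.49, 0.173), and with sex as a term (-1.59, 0.273).

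Among the 4 genes of eIF2 phosphorylation and ER stress, Eif2ak3 fell and 3 did not pass. Eif2ak3, the kinase Perk of the ER membrane (chr6:70844515-70905245, plus strand), measured 7.99, 21.3, 9.31 and 18.3 CPM in the Neat1 null libraries, against 20.5, 33.2, 44.7 and 40.2 CPM in the wild-type libraries. Neat1 null replicate 2 slightly exceeded wild-type replicate 1, and all others were apart. The means were 14.2 ± 6.57 CPM in the Neat1 null libraries and 34.6 ± 10.5 CPM in the wild-type libraries (SD, n = 4 each), a log2 fold change of -1.28 ± 0.40 (edgeR adjusted p = 0.0411). Length and GC correction gave -1.19 ± 0.37 (edgeR adjusted p = 0.0555). In edgeR the call was lost without Neat1 null replicate 1 (-1.09, adjusted p = 0.0804) or 3 (-1.11, 0.103), without wild-type replicate 2 (-1.29, 0.0652), 3 (-1.14, 0.135) or 4 (-1.20, 0.124), without Neat1 null replicates 1 and 3 (-0.82, 0.202), and with sex as a term (-1.89, 0.0587).

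Eif2ak4, the amino acid sensor Gcn2, ranged from 15.8 to 45.2 CPM in the Neat1 null libraries and from 36.1 to 54.9 CPM in the wild-type libraries (-0.49 ± 0.36, edgeR adjusted p = 0.331). Xbp1, a transcription factor of the ER stress response, ranged from 14.9 to 170 CPM in the Neat1 null libraries and from 31.7 to 104 CPM in the wild-type libraries (0.22 ± 0.55, edgeR adjusted p = 0.799). Herpud1, which acts in the degradation of ER proteins, ranged from 23.2 to 121 CPM in the Neat1 null libraries and from 25.0 to 51.3 CPM in the wild-type libraries (0.83 ± 0.45, edgeR adjusted p = 0.193). Of the 2 eIF2 kinases among the 32 genes, both had negative fold changes and 1 passed the test. Outside the 32 genes, the eIF2 kinases Eif2ak1 (0.24 ± 0.33, edgeR adjusted p = 0.632) and Eif2ak2 (-1.08 ± 0.73, 0.306) did not pass. In the fit with sex as a term, which rests on Neat1 null replicate 3 alone, the log2 fold changes were -1.52 for Eif2ak4, -1.89 for Eif2ak3 and 1.70 for Herpud1.

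None of the 7 transporter subunits was called by edgeR with genotype as the only term and all 8 libraries, and 2 had an unadjusted p under 0.05. DESeq2 called Slc3a2, which had a log2 fold change of 1.92 with sex as a term, a fit that rests on Neat1 null replicate 3 alone. Slc3a2, the heavy chain shared by several amino acid exchangers, measured 272, 244, 601 and 282 CPM in the Neat1 null libraries, against 221, 213, 91.8 and 108 CPM in the wild-type libraries. The groups did not overlap, with Neat1 null replicate 3 far above and wild-type replicates 3 and 4 far below. The means were 350 ± 168 CPM in the Neat1 null libraries and 159 ± 67.9 CPM in the wild-type libraries (SD, n = 4 each), with a log2 fold change of 1.14 ± 0.43 (edgeR adjusted p = 0.0747, DESeq2 adjusted p = 0.0288).

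Its light chains differed in level per length, with Neat1 null means of 106 CPM per kilobase of exon for Slc7a5 and 0.615 for Slc7a11. Slc7a5, the light chain for large neutral amino acids, ranged from 206 to 761 CPM in the Neat1 null libraries and from 62.4 to 324 CPM in the wild-type libraries (1.23 ± 0.57, edgeR adjusted p = 0.135), and was called when wild-type replicate 1 was left out (1.78, edgeR adjusted p = 0.0463). Slc7a11, the cystine light chain, measured 3.68, 15.8, 4.37 and 10.4 CPM in the Neat1 null libraries, against 9.44, 7.36, 3.54 and 1.87 CPM in the wild-type libraries. Neat1 null replicates 2 and 4 were the highest, and replicates 1 and 3 lay within the wild-type range. The means were 8.56 ± 5.69 CPM in the Neat1 null libraries and 5.55 ± 3.46 CPM in the wild-type libraries (SD, n = 4 each), with a log2 fold change of 0.63 ± 0.57 (edgeR adjusted p = 0.446), and 1.45 ± 0.56 after length and GC correction (edgeR adjusted p = 0.0959).

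The other transporters had smaller fold changes, of a size close to their SE, that did not pass the test. The arginine and lysine carrier Slc7a1 had 0.40 ± 0.44 (edgeR adjusted p = 0.536), and the glutamine carrier Slc1a5 had 0.44 ± 0.37 (edgeR adjusted p = 0.410). Slc1a4, which carries serine and alanine, had -0.22 ± 0.35 (edgeR adjusted p = 0.676), and the neutral amino acid carrier Slc38a2 had -0.34 ± 0.37 (edgeR adjusted p = 0.525). Their levels ranged from 18.2 to 276 CPM in the Neat1 null libraries and from 22.1 to 274 CPM in the wild-type libraries, and for each the groups overlapped.

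Within each genotype the 32 genes differed between libraries. Their summed level was 4957, 5260, 11551 and 6048 CPM in the Neat1 null libraries, against 4618, 4460, 2207 and 2234 CPM in the wild-type libraries. Neat1 null replicate 3 stood above the other Neat1 null libraries, and wild-type replicates 3 and 4 stood below wild-type replicates 1 and 2. Relative to each gene's mean over the 8 libraries, the median of the 32 genes was -0.03, 0.23, 0.78 and 0.39 on the log2 scale in the Neat1 null libraries, against 0.12, 0.16, -0.67 and -0.97 in the wild-type libraries. The medians of Neat1 null replicates 1 and 2 and of wild-type replicates 1 and 2 thus lay between -0.03 and 0.23.

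Neat1 null replicate 3 was the highest of all 8 libraries for 16 of the 32 genes, and the lowest for 5. Wild-type replicate 4 was the lowest of all 8 for 11 genes and wild-type replicate 3 for 7. Within the wild-type group, replicate 1 or 2 was the highest for all 7 transporters and all 6 folate enzymes, and replicate 3 or 4 was the lowest for all of these 13 genes. Among the genes that fell, Eif2ak3 and Aldh1l2 were lowest in Neat1 null replicates 1 and 3, and Vldlr in replicates 1 and 4. The plot of levels relative to the gene mean shows this pattern.

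**Figure D3:**
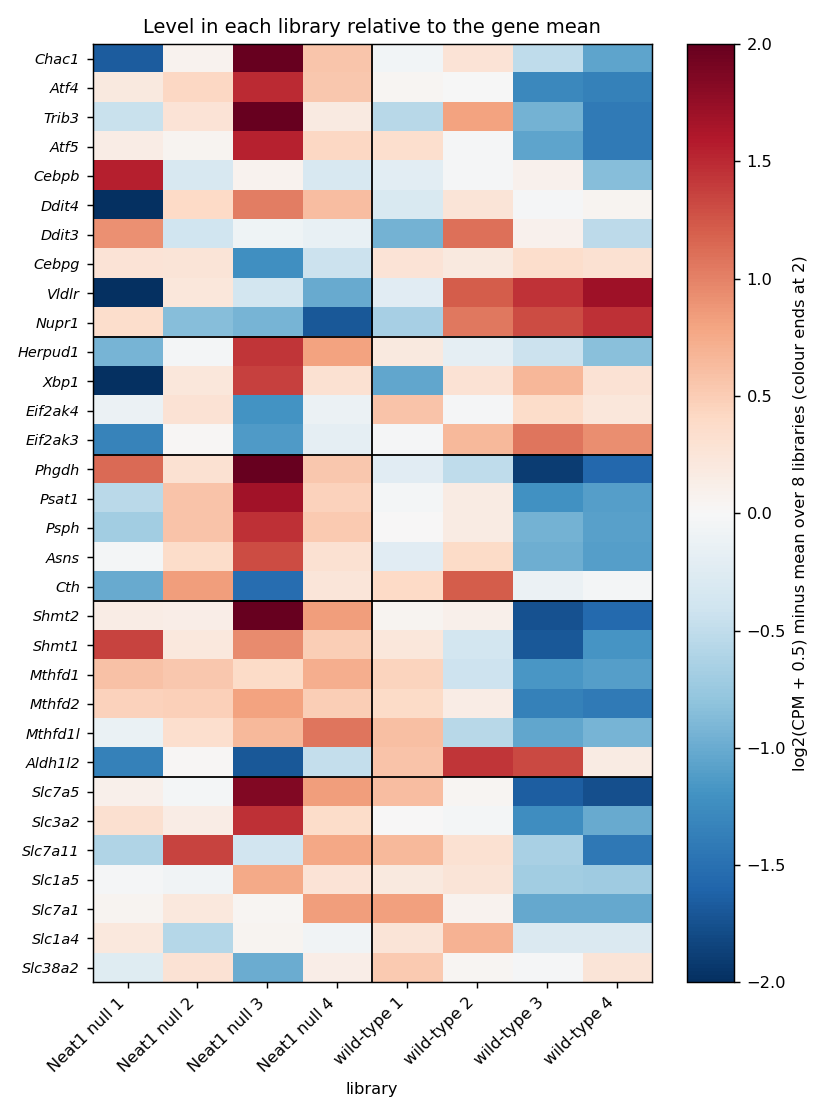
Log2 level of each gene (rows, by role) in each library (columns, Neat1 null on the left of the vertical line and wild-type on the right) minus the gene's mean over the 8 libraries, from blue (below the mean) to red (above it), with colours ending at 2. Neat1 null replicate 3 is red and wild-type replicates 3 and 4 are blue for most serine, folate and transporter genes, while Vldlr, Eif2ak3 and Aldh1l2 have the opposite colours in these libraries.

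The calls, here as over all genes, rested on particular libraries, as the plot of the fits with libraries left out shows. When 1 library at a time was left out, the number of the 32 genes called by edgeR ranged from 0 to 10. It was 0 without Neat1 null replicate 3, wild-type replicate 3 or wild-type replicate 4, and 7 genes had an unadjusted p under 0.05 in each of these fits. The loss was general, since 13 of all genes were called without Neat1 null replicate 3, 18 without wild-type replicate 3 and 11 without wild-type replicate 4, against 2356 with all 8 libraries. It was 10 without wild-type replicate 1, where 2837 of all genes were called. Phgdh was called in 5 of the 8 fits, and the 5 called genes kept their direction in all 8. Without Neat1 null replicates 1 and 3 together it was 0, with 10 genes at an unadjusted p under 0.05, and 7 of all genes were called.

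**Figure D4:**
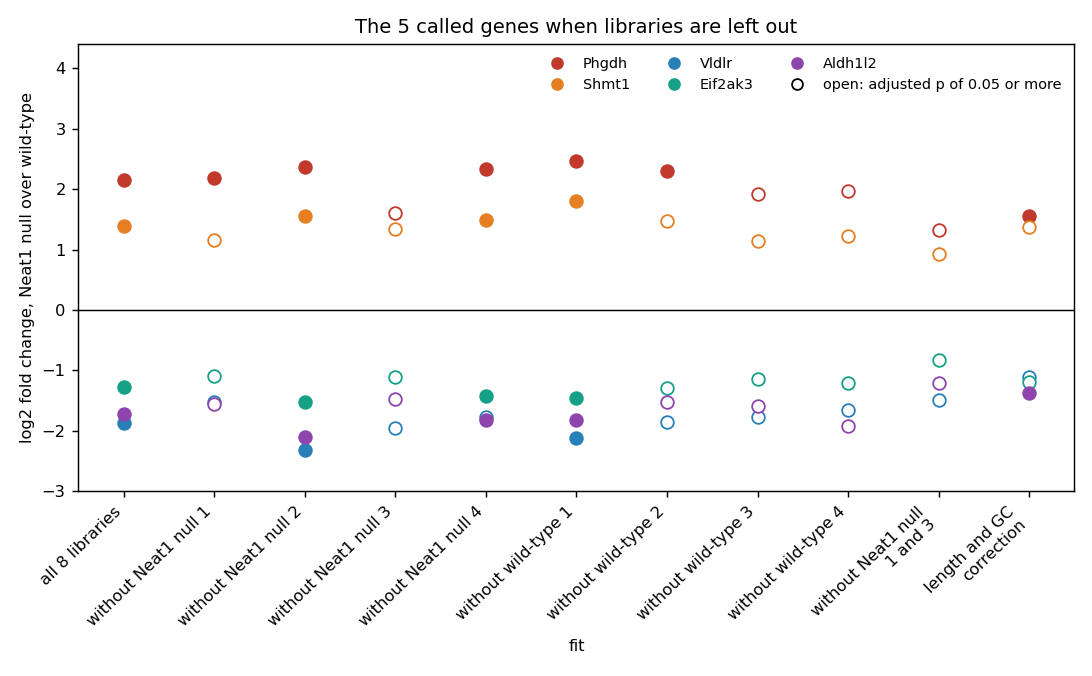
Log2 fold change (Neat1 null over wild-type, y axis) of the 5 called genes in the fit of all 8 libraries, in fits that leave libraries out and in the length and GC corrected fit (x axis), with open circles for an adjusted p of 0.05 or more. Phgdh and Shmt1 stay above 0 and Vldlr, Eif2ak3 and Aldh1l2 below 0 in each fit, and all circles are open without Neat1 null 3, wild-type 3 or wild-type 4.

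On a scale of CPM per kilobase of annotated exon, which allows levels to be compared between genes, Phgdh led with a mean of 480 in the Neat1 null libraries and 109 in the wild-type libraries. Atf4 followed with 305 in the Neat1 null and 128 in the wild-type libraries, and Shmt2 with 234 in the Neat1 null and 80.0 in the wild-type libraries. Psat1 had 226 in the Neat1 null and 99.6 in the wild-type libraries. In the wild-type libraries the mean level of Atf4 was thus above that of Phgdh. At the low end stood Eif2ak3 with 2.36 in the Neat1 null and 5.75 in the wild-type libraries, and Vldlr with 1.42 in the Neat1 null and 5.19 in the wild-type libraries. Aldh1l2 had 1.18 in the Neat1 null and 3.90 in the wild-type libraries. The 3 genes that fell were therefore among the 5 lowest per length in both groups, with Slc7a11 and Nupr1 below them, while Phgdh, which rose, was at or next to the top. Whether neighbours in this order differ was not tested.

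Other genes of the same pathways, listed by role, showed 12 calls among 73 tested, 9 higher and 3 lower (edgeR). Over all genes tested 17.7% were called, 9.97% higher and 7.72% lower, so the number of calls does not set these lists apart as a whole. The same shares are the comparison for each list below. With sex as a term, where Neat1 null replicate 3 alone carries the genotype effect, some of the 12 lost their call and other genes of these lists gained one. The log2 fold changes of those that lost it were 0.78 for Eif2b3, 2.04 for Eif2b4, 2.23 for Atf3, 1.34 for Creld2, -2.13 for Amt and 1.70 for Slc19a1. In the eIF2 pathway, 5 of 16 genes rose, 0 fell, and the median was 0.54 on the log2 scale. Subunits of eIF2B, the exchange factor that phosphorylated eIF2 inhibits, made up 4 of the 5. Eif2b2 measured 365, 112, 287 and 120 CPM in the Neat1 null libraries, against 70.7, 69.6, 45.3 and 45.0 CPM in the wild-type libraries (1.94 ± 0.44, edgeR adjusted p = 0.0185). Eif2b5 averaged 378 ± 170 CPM in the Neat1 null libraries and 109 ± 29.2 CPM in the wild-type libraries (1.80 ± 0.41, edgeR adjusted p = 0.0186). Both genes were higher in all Neat1 null libraries than in all wild-type libraries.

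Eif2b4 averaged 230 ± 230 CPM in the Neat1 null libraries and 41.0 ± 19.2 CPM in the wild-type libraries (2.49 ± 0.60, edgeR adjusted p = 0.0194). Its large SD came from Neat1 null replicate 1, at 570 CPM, without which the value was 1.51 (edgeR adjusted p = 0.0384). Eif2b3, named here after its values were seen, had 1.73 ± 0.53 (edgeR adjusted p = 0.0389) and lost its call without that library (0.82, 0.134). Atf3, a stress-induced factor downstream of Atf4, measured 12.0, 81.2, 70.6 and 161 CPM in the Neat1 null libraries, against 21.3, 19.9, 11.3 and 7.55 CPM in the wild-type libraries (2.44 ± 0.60, edgeR adjusted p = 0.0201). It lost its call with a replicate block (2.16, edgeR adjusted p = 0.0707) and with that block and the length and GC correction (1.79, 0.154). Neat1 null replicate 1, with the highest Krt18 level and the largest share of ribosomal protein counts, was the 1 Neat1 null library within the wild-type range for Atf3. After length and GC correction 7 of the 16 genes rose, against 7.71% of all genes.

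Among 16 other ER stress genes, 1 rose, 1 fell, and the median was -0.04 on the log2 scale. Ern1, the ER stress sensor Ire1, fell and measured 19.6, 17.8, 12.6 and 22.0 CPM in the Neat1 null libraries, against 37.0, 45.0, 36.1 and 49.8 CPM in the wild-type libraries (-1.22 ± 0.32, edgeR adjusted p = 0.0239). The groups did not overlap. Creld2, an ER protein, rose (1.20 ± 0.40, edgeR adjusted p = 0.0485), and without Neat1 null replicate 1 it had 0.81 (edgeR adjusted p = 0.121). It had 0.36 after length and GC correction (edgeR adjusted p = 0.356), and it also lost its call with upper-quartile scaling (1.00, 0.0718). Hspa5, the main ER chaperone, had -0.02 ± 0.39 (edgeR adjusted p = 0.970).

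Among 24 other serine, glycine and folate genes tested, 3 rose, 1 fell, and the median was 0.08 on the log2 scale. Gcsh, the carrier protein of the glycine cleavage system, averaged 133 ± 36.6 CPM in the Neat1 null libraries and 43.3 ± 23.6 CPM in the wild-type libraries (1.61 ± 0.41, edgeR adjusted p = 0.0212). Amt, the aminomethyltransferase of the same system, fell, at 0.449, 0.939, 1.20 and 1.32 CPM in the Neat1 null libraries, against 2.23, 4.62, 6.60 and 7.55 CPM in the wild-type libraries (-2.40 ± 0.56, edgeR adjusted p = 0.0189). These 2 components of 1 enzyme system thus went in opposite directions, with Amt at a low level. Its other components, Gldc (-0.14 ± 0.37, edgeR adjusted p = 0.812) and Dld (0.12 ± 0.44, 0.858), were not called.

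Tyms, which uses folate to make thymidylate, averaged 166 ± 23.8 CPM in the Neat1 null libraries and 55.5 ± 35.7 CPM in the wild-type libraries (1.58 ± 0.43, edgeR adjusted p = 0.0266). Slc19a1, the reduced folate carrier, had 1.32 ± 0.42 (edgeR adjusted p = 0.0435). Its call was also lost in edgeR with upper-quartile scaling (1.16, adjusted p = 0.0516) and after length and GC correction (1.18, 0.0687). Leaving out Neat1 null replicate 1 (1.17, 0.0782) or 4 (1.38, 0.0537), or wild-type replicate 2 (1.35, 0.0724), removed it as well. Among 17 other amino acid transporters tested, 1, the cationic carrier Slc7a2, fell, at 2.69, 4.69, 2.29 and 5.80 CPM in the Neat1 null libraries, against 14.2, 9.21, 29.3 and 16.2 CPM in the wild-type libraries (-2.14 ± 0.47, edgeR adjusted p = 0.0181). Without Neat1 null replicate 3, wild-type replicate 3 or wild-type replicate 4, 0 of the 73 genes were called, as for the 32 genes above. Without wild-type replicate 2, 8 were called, and Ern1 (-1.18, edgeR adjusted p = 0.0510), Eif2b3 (1.73, 0.0691) and Creld2 (1.38, 0.0552) also lost their calls.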

How the data were processed

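The 4 Neat1 null and 4 wild-type MEF libraries were made with a stranded TruSeq kit from total RNA, per the labels' protocols. For each library the authors deposited 1 table of raw counts by gene symbol, and the submitters' processing notes name CASAVA 1.8, STAR, DESeq2 and mm10. The counter, its strand setting and the annotation are not given in the sources used here. Reads outside genes made up 5.48% to 11.0% of counts in Neat1 null and 9.83% to 15.7% in wild-type libraries, and ambiguous reads 1.34% to 1.76% in Neat1 null and 1.09% to 1.22% in wild-type libraries. Both stayed out of library sizes and tests.

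Genes past filterByExpr (minimum count 10; edgeR 4.0.16, R 4.3.3) were scaled by TMM and tested with the quasi-likelihood F test (robust, 2-sided, genotype the only term). P-values were adjusted by Benjamini-Hochberg over 13316 genes, with a threshold of 0.05. The SE is the fold change divided by the square root of F. Fold changes run Neat1 null over wild-type. DESeq2 1.42.0, other scalings and filters, left-out libraries, a sex term, a replicate block and a spline correction (5 degrees of freedom) of each library for GC content and exon length were alternatives. Exon lengths, GC content and coordinates came from a GENCODE annotation of GRCm38, which matched 21777 symbols directly and 1298 by synonym. Promoters came from RefSeq. Exons of 10 of the 32 genes overlap another gene, so reads may be shared. Chi-square per degree of freedom between libraries of a group was at least 59.3, so none was a duplicate. Full values were given for genes called in the main or length and GC corrected fit, genes whose groups do not overlap, Atf4, Ddit3, Phgdh and Slc7a11; up to 4 called genes of smallest p were named from each other list. Values of further genes were added for their roles. The genes and lists were chosen with earlier results of these data known. The statistics were tested on simulated data.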

Additional observations from a re-analysis of the deposited data

Results flagged for a closer look

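Of 66 groups of 4 libraries checked, 6 had 1 library far from the others by Dixon's criterion, which chance meets in about 1 group in 20. All 6 were in the Neat1 null group. Replicate 3 was high for Atf5 at 240 CPM (next highest 109 CPM), for Trib3 at 169 CPM (next 47.9 CPM), for Mthfd2 at 257 CPM (next 208 CPM) and for Slc3a2 at 601 CPM (next 282 CPM). Replicate 1 was high for Ddit3 at 70.0 CPM (next 34.7 CPM) and for Cebpb at 32.6 CPM (next 11.4 CPM).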

How the results depend on the processing

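Over 33 results and 627 alternatives, 537 kept direction and side of the threshold, 36 lost the call, 29 gained it and 25 changed sign. For the 5 called genes, 60 of 95 alternatives kept the call, 35 lost it and none changed sign. The number of the 32 genes called was 11 with DESeq2 (3433 of all genes), 2 after length and GC correction, 14 (11 higher, 3 lower) with sex as a term (3379 of all genes), 0 at a threshold of 0.01, 10 at 0.1, 0 without Neat1 null replicates 1 and 3, and 0 to 10 with 1 library left out. All genes called numbered 3878 at 0.1, 7 at 0.01, 7 without Neat1 null replicates 1 and 3, and 11 to 2965 with 1 library left out. Of the 73 other pathway genes, 19 were called with DESeq2 (25.8% of all genes), 21 at 0.1, 0 at 0.01, 0 without Neat1 null replicates 1 and 3, and 0 to 16 with 1 library left out. The median of the 32 genes stayed between 0.44 and 1.01 with 1 library left out.

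The genes that changed sign were not called in those fits. Ddit3 had -0.19 with upper-quartile scaling, -0.36 to 0.58 with 1 library left out, -0.43 without Neat1 null replicates 1 and 3, -0.55 after length and GC correction, -0.43 with that correction and the block, and -0.24 with sex. Cebpb had -0.12, -0.21 and -0.29 without Neat1 null replicates 1 and 3, after correction, and with correction and block. Ddit4 had -0.20 after correction and -0.54 with the block added. Xbp1 had -0.0040 with upper-quartile scaling, -0.34 to 0.55 with 1 library left out, -0.094 with the block, -0.015 after correction and -0.26 with both. Cth had 0.10 without Neat1 null replicates 1 and 3, Slc7a11 -0.34 with sex, Slc1a4 -0.34 to 0.027 with 1 library left out, and Slc38a2 0.35 after correction and 0.37 with the block added. The cause was not tested. Upper-quartile scaling moved the median of all genes to -0.24, against -0.06 with TMM, with 1036 higher and 1428 lower calls, against 1328 and 1028.

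Same-numbered libraries did not consistently deviate together (r from -0.252 to 0.319, 2 of 4 pairs over 0.1, 2 libraries closest to their own number). These 4 correlations cannot exclude that the numbers pair the samples. The replicate block called the same 5 of the 32 genes and 2245 genes in all. It called 10 of the 73 other pathway genes, and Atf3 (2.16, edgeR adjusted p = 0.0707) and Creld2 (1.09, 0.0813) lost their calls. Nupr1, with as few as 8 counts, is the gene most limited by depth.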
